A study of Mus musculus with 12 samples.

Results

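The GADD45 family genes Gadd45a, Gadd45b and Gadd45g, and 6 genes known as targets of the transcription factor p53 (Cdkn1a, Ccng1, Mdm2, Sesn1, Trp53inp1 and Phlda3), were followed in CD4+ T cells sorted from mouse lungs. These 9 genes were taken by symbol from the 19434 genes of a count table. They were chosen by name with measured values of these same libraries in view, namely the counts of the 4 groups, so their levels, fold changes and p-values are a description and are not independent evidence. RNA was sequenced from 12 libraries in 4 groups of 3. Juvenile E. coli mice aspirated 2800000 colony-forming units of Escherichia coli at 15 days of age, and juvenile PBS mice aspirated phosphate-buffered saline at the same age. Neonatal E. coli mice and neonatal PBS mice were treated in the same ways at 5 days of age. All groups were C57BL/6NJ animals of both sexes, and their lungs were taken 48 h after aspiration. Each library was a pool, of 2 mice for juveniles and 3 for neonates, so n counts pools and the size of the pool cannot be told apart from age. Magnetic beads and then a cell sorter were used to purify the cells, and the labels do not state the gate. Nothing in the labels says how the pools were spread over litters, so p-values measure the spread between these pools.

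p53 is a transcription factor that is stabilised by DNA damage and other stress, and that holds cells out of division or leads them to death. Among its best known targets, Cdkn1a encodes the cyclin-dependent kinase inhibitor p21, and Mdm2 encodes the ubiquitin ligase that returns p53 to low levels. GADD45 proteins are small nuclear proteins that bind cell cycle partners and activate the kinase Map3k4 upstream of p38 and JNK. Gadd45a is a classical p53 target, whereas Gadd45b and Gadd45g are induced by cytokines and, in mouse helper T cells, take part in p38 signalling and interferon-gamma production.

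Counts per library ran from 6035445 to 8129983, and 11062 genes passed the filter on low counts. Levels are CPM, counts per 1000000 counts of tested genes after TMM scaling, and the limit that a count of 0 leaves, 3 counts, was worth between 0.374 and 0.494 CPM, for counting error alone. T cell markers were abundant in every library, with Cd4 at 1082 ± 49.7, 1298 ± 50.9, 1086 ± 16.1 and 1133 ± 87.5 CPM (SD, n = 3) in juvenile E. coli, juvenile PBS, neonatal E. coli and neonatal PBS libraries, and it was lower after E. coli in juveniles (log2 -0.26 ± 0.072, adjusted p = 0.0152). Juvenile PBS library 2 correlated with the other libraries of its group at 0.969 and 0.975, lower than any other pair within a group. Its 7 immature T cell markers summed to 384 CPM, against 60.5 and 77.6 CPM in libraries 1 and 3, and neonatal PBS library 1 stood at 576 CPM against 159 and 113 CPM in libraries 2 and 3. Juvenile E. coli libraries held 224 to 283 CPM of these markers, and neonatal E. coli libraries held 45.2 to 95.7 CPM, below every neonatal PBS library. In bulk RNA, fewer cells of a type and less RNA per cell cannot be told apart.

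Transcripts of other cells and of dividing cells moved with the groups. The 10 neutrophil markers summed to 9.40 to 21.8 CPM in juvenile E. coli libraries and 0.165 to 3.31 CPM in juvenile PBS libraries. In neonates they summed to 10.1 to 54.9 CPM after E. coli and 0.833 to 3.27 CPM after PBS. The defining marker Ly6g was at 0 counts in all 6 neonatal libraries and all 3 juvenile PBS libraries. The 3 juvenile E. coli libraries held 7 Ly6g counts together (0.254 to 0.377 CPM), at or under 3 counts in each. The 12 monocyte and macrophage markers summed to 718 to 938 CPM in juvenile E. coli and 269.6 to 367 CPM in juvenile PBS libraries, and to 229.5 to 342 CPM in neonatal E. coli and 182 to 297 CPM in neonatal PBS libraries. Of 11 tested, 9 were called higher and 1 lower after E. coli in juveniles, or 90.9% against 24.8% of all genes. Ccr2 alone stood at 404 ± 34.1 CPM in juvenile E. coli and 127 ± 6.36 CPM in juvenile PBS libraries. Chil3 went the other way, at 1.96 ± 1.49 and 33.3 ± 4.39 CPM. The 8 dendritic cell markers summed to 267 to 355 CPM in juvenile E. coli and 139.6 to 154 CPM in juvenile PBS libraries. They were lower in neonates, at 79.0 to 93.05 CPM after E. coli and 61.6 to 84.9 CPM after PBS. The 10 lung epithelial markers summed to 92.0 to 207 CPM in juvenile E. coli and 36.8 to 44.1 CPM in juvenile PBS libraries, and to 65.0 to 177 CPM in neonatal E. coli and 49.5 to 88.2 CPM in neonatal PBS libraries. Of 7 endothelial markers tested, 5 were called higher and 1 lower after E. coli in juveniles (median log2 2.63). The sum of the 8 in the table was 226 to 247 CPM in juvenile E. coli and 227 to 244 CPM in juvenile PBS libraries. Most of that sum was Pecam1, at 187.5 ± 5.88 and 226.9 ± 9.23 CPM in these groups. By contrast, Kdr stood at 20.5 ± 9.71 and 1.77 ± 0.195 CPM and Cdh5 at 19.0 ± 4.28 and 4.75 ± 1.6 CPM. The 14 proliferation genes summed to 3637 to 5447 CPM in juvenile E. coli, 1716 to 3015 in juvenile PBS, 3484 to 3793 in neonatal E. coli and 3722 to 4598 in neonatal PBS libraries. The 16 immediate early and dissociation stress genes summed to 2894 to 3962, 2179 to 3083, 2786 to 3154 and 1693 to 2069 CPM in the same order. The part of these transcripts in the results below was not tested.

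**Figure D1:**
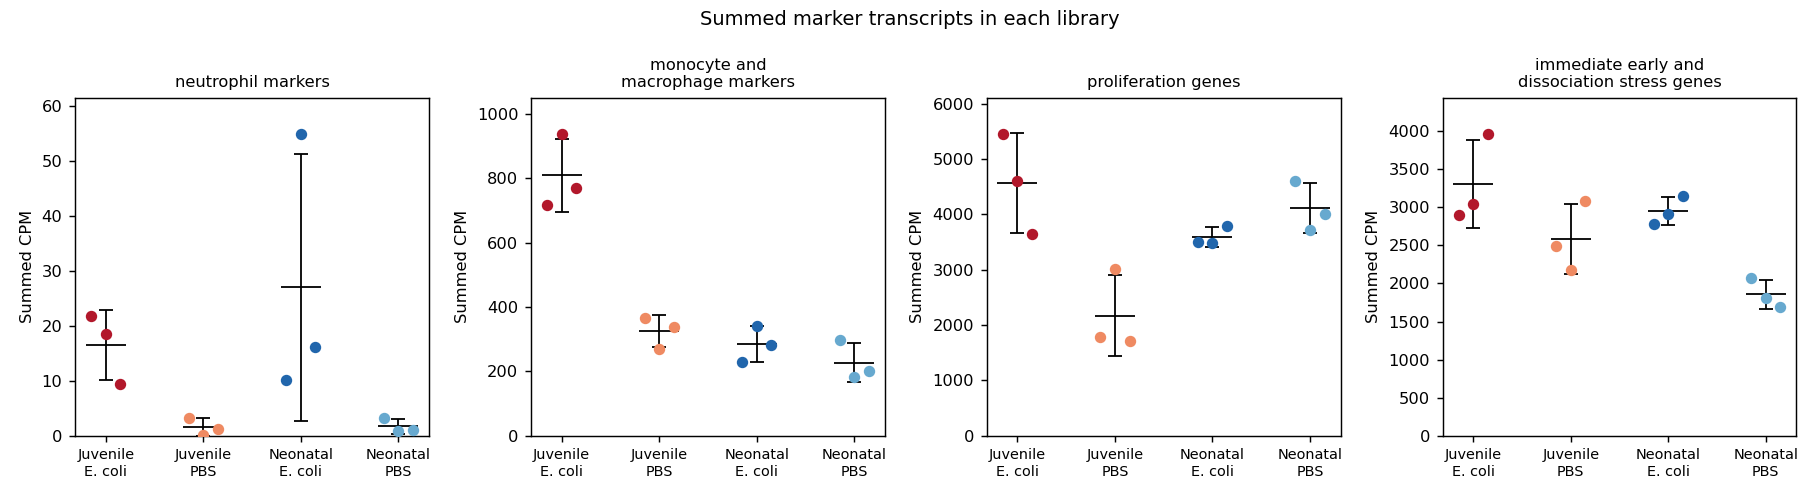
Summed CPM of 4 marker lists in each of the 12 libraries (points), with the mean and SD of each group of 3 (black bars). Neutrophil sums were above 9 CPM in all 6 E. coli libraries and under 4 CPM in all 6 PBS libraries, and proliferation genes were lowest in juvenile PBS libraries.

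Of the 9 genes, 8 passed the filter. In juvenile mice, E. coli against PBS, 3 were higher (Gadd45b, Gadd45g and Cdkn1a), 1 was lower (Sesn1), 4 were not called and Phlda3 was not tested. Over all tested genes 24.8% were called in that comparison, 15.4% higher and 9.42% lower (edgeR quasi-likelihood test, Benjamini-Hochberg adjusted p under 0.05). With upper-quartile scaling the split of all called genes moved to 1468 higher and 1415 lower, against 1705 and 1042. In neonates 2 were higher (Gadd45g and Cdkn1a) and 1 was lower (Sesn1), where 1.19% of all tested genes were called, 1.05% higher and 0.145% lower. Because these genes were chosen with such contrasts known, nothing is read from the counts. The 8 genes' median log2 fold change was 0.12 in juveniles and -0.03 in neonates, against -0.01 and 0.00 over all tested genes. The count in neonates was 1 without E. coli library 2 or without PBS library 2, and 5 without juvenile PBS library 2, which shares the estimate of spread.

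After E. coli, Gadd45g was called higher at both ages, Gadd45b in juveniles and Gadd45a at neither age. Per kilobase of exon, Gadd45a was the most abundant of the family in every group, at 10.3 ± 1.60, 9.38 ± 0.175, 11.9 ± 2.41 and 11.2 ± 0.648 CPM per kb (SD, n = 3) in juvenile E. coli, juvenile PBS, neonatal E. coli and neonatal PBS libraries. Gadd45b stood at 7.66 ± 0.921, 3.07 ± 1.57, 5.66 ± 0.689 and 2.92 ± 0.916 CPM per kb in that order. Gadd45g stood at 8.15 ± 2.15, 1.15 ± 0.466, 5.76 ± 1.5 and 1.22 ± 0.759 CPM per kb. As a share of the summed level of the family per kb, Gadd45a held 39.4 ± 2.18% in juvenile E. coli and 70.1 ± 10.6% in juvenile PBS libraries, and 50.7 ± 6.91% in neonatal E. coli and 73.0 ± 0.556% in neonatal PBS libraries. The shares of the groups did not overlap at either age. The summed family level was 26.1 ± 4.43 and 13.6 ± 2.17 CPM per kb in juvenile E. coli and juvenile PBS libraries, and 23.3 ± 1.51 and 15.3 ± 0.818 CPM per kb in neonatal E. coli and neonatal PBS libraries.

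**Figure D2:**
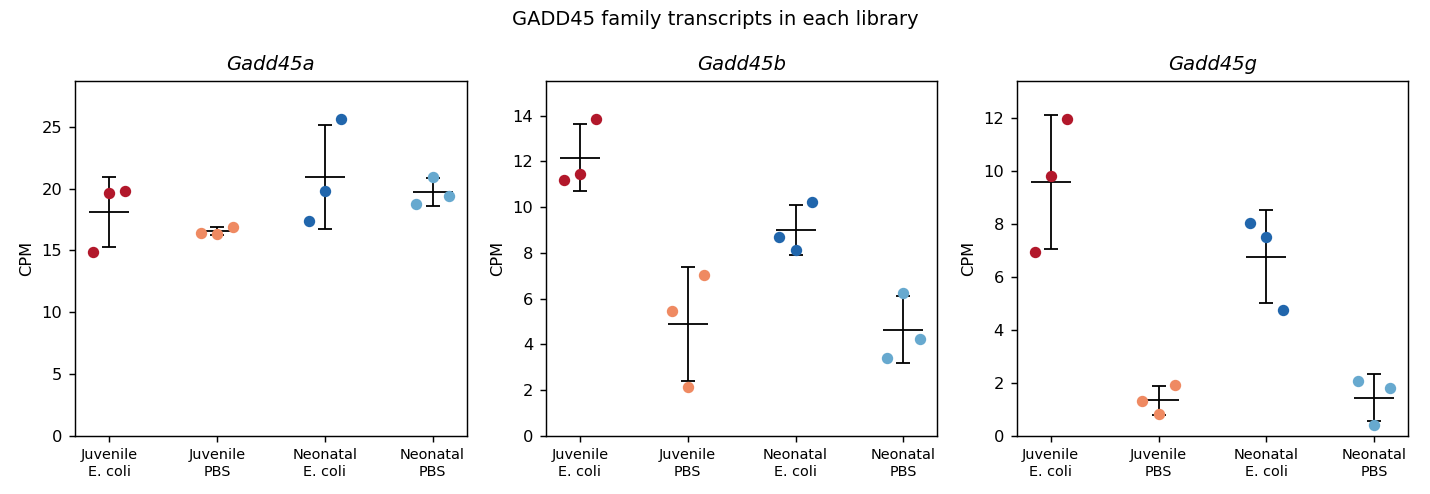
CPM of the GADD45 genes in each library (points), with the mean and SD of each group of 3 (black bars). The Gadd45b and Gadd45g levels of E. coli libraries lie above those of PBS libraries at each age, while the Gadd45a groups overlap. In neonates edgeR did not call Gadd45b (adjusted p = 0.212). The share of all genes without such overlap is not given here.

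Gadd45g (chromosome 13, 51846678 to 51848468, GRCm38, plus strand) is the family member known for its induction in T helper 1 cells. It stood at 6.92, 9.81 and 11.9 CPM in juvenile E. coli libraries 1 to 3, against 1.30, 0.824 and 1.91 CPM in juvenile PBS libraries. Neonatal E. coli libraries had 8.04, 7.48 and 4.75 CPM, against 2.08, 0.417 and 1.8 CPM in neonatal PBS libraries. All 6 E. coli libraries lay above all 6 PBS libraries. The log2 fold change was 2.81 ± 0.42 (SE, n = 3 per group) in juveniles, with an adjusted p of 0.000212, and 2.25 ± 0.43 in neonates, with an adjusted p of 0.0138. Its PBS libraries held only 3 to 14 counts each, and neonatal PBS library 2 was at the floor of 3 counts. The call in neonates was lost without E. coli library 1 (adjusted p = 0.0518), E. coli library 2 (adjusted p = 0.0651) or PBS library 2 (adjusted p = 0.0610), and the log2 fold change was then 2.11, 2.19 and 1.8. The juvenile and neonatal responses differed by 0.56 ± 0.63 on the log2 scale (adjusted p = 0.658), a difference within its error.

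Gadd45b (chromosome 10, 80930073 to 80932204, plus strand) stood at 11.2, 11.5 and 13.9 CPM in juvenile E. coli libraries, against 5.48, 2.14 and 7.01 CPM in juvenile PBS libraries. In neonatal E. coli libraries it had 8.68, 8.1 and 10.2 CPM, against 3.42, 6.25 and 4.25 CPM in neonatal PBS libraries. Again every E. coli library was above every PBS library. The log2 fold change was 1.31 ± 0.31 in juveniles (adjusted p = 0.00630) and 0.94 ± 0.32 in neonates, where edgeR did not call it (adjusted p = 0.212) and limma voom did (adjusted p = 0.0480). Without juvenile PBS library 2, the lowest for this gene at 13 counts, the change in juveniles was 0.97 (adjusted p = 0.00927), and the change in neonates was 0.94 with an adjusted p of 0.0465. The difference of the responses, 0.37 ± 0.44 (adjusted p = 0.682), was within its error and was 0.02 without that library.

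Gadd45a (chromosome 6, 67035096 to 67037457, minus strand), the family member most tied to p53, stood at 14.8, 19.6 and 19.8 CPM in juvenile E. coli libraries, against 16.4, 16.3 and 16.9 CPM in juvenile PBS libraries. Neonatal E. coli libraries had 17.4, 19.8 and 25.6 CPM, against 18.7, 21.0 and 19.4 CPM in neonatal PBS libraries. The groups overlapped at both ages. The log2 fold change was 0.13 ± 0.16 in juveniles (adjusted p = 0.609) and 0.08 ± 0.16 in neonates (adjusted p = 0.908). An antisense transcript, E230016M11Rik, overlaps 337 bases of its exons and is not a row of the count table, and reads of both strands cannot be told apart in these libraries.

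The promoters of Gadd45b and Gadd45g are shown because both genes were called higher after E. coli in juveniles. They are RefSeq windows on GRCm38.p6, from 250 bases before to 50 bases after the annotated start, 5′ to 3′ on the gene's strand. In both, the capitals mark TATAAA, the TATA box motif, and CACGTG, an E-box. Gadd45b is chr10:80929841-80930140, plus strand, and Gadd45g is chr13:51846425-51846724, plus strand.
Gadd45b: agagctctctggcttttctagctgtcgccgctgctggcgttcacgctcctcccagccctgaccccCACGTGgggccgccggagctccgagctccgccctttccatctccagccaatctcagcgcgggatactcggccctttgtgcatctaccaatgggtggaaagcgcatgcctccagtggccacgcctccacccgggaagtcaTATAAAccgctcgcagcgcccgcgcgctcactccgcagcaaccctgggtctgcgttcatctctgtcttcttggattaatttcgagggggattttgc
Gadd45g: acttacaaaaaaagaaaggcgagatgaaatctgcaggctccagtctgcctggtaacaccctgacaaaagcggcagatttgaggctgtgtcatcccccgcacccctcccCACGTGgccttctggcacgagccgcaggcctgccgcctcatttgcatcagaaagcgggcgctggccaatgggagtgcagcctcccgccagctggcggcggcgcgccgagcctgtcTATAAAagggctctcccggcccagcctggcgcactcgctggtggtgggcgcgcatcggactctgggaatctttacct
Searched on both strands, TATAAA was in 13.6% and CACGTG in 7.15% of all 32851 windows of this length, and among the 10 windows matched for 8 of the 9 genes both were in these 2 alone. TGANTCA (the AP-1 motif, in 7.81% of all windows), TGACGTCA (the CRE, 1.79%), TTCNNNGAA (a STAT motif, 8.30%) and the NF-kB consensus (8.46%) were in none of the 10. The motifs were chosen after these sequences were seen, and a match is a description of letters.

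Cdkn1a (chromosome 17, 29090976 to 29100727, plus strand), the p21 gene, had the largest change of the 9 in juveniles. In neonates the change of Gadd45g was larger, at log2 2.25 ± 0.43. Cdkn1a stood at 25.7, 22.6 and 23.4 CPM in juvenile E. coli libraries, against 1.44, 2.64 and 2.87 CPM in juvenile PBS libraries. These juvenile PBS levels rest on 10, 16 and 18 counts. In neonatal E. coli libraries it had 16.3, 18.3 and 18.9 CPM, against 6.99, 8.06 and 4.41 CPM in neonatal PBS libraries. The 4 groups did not overlap, in the order juvenile E. coli, neonatal E. coli, neonatal PBS and juvenile PBS from highest to lowest. The fold change was 10.4 in juveniles (log2 3.37 ± 0.24, adjusted p = 5.44e-07), rank 66 from the highest of 11062 tested genes. In neonates it was 2.72-fold (log2 1.45 ± 0.21, adjusted p = 0.003).

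The response of Cdkn1a was larger in juveniles than in neonates by 1.93 ± 0.33 on the log2 scale (adjusted p = 0.00324). Of the 9 genes, 2 were called in this test of the difference, Cdkn1a higher and Sesn1 lower, where 7.00% of all tested genes were called, 5.05% higher and 1.94% lower. Juvenile PBS libraries were below neonatal PBS libraries by a log2 fold change of -1.51 ± 0.27 (adjusted p = 0.00624), while juvenile E. coli libraries were above neonatal E. coli libraries by 0.42 ± 0.19, which edgeR did not call in the fit of all groups (adjusted p = 0.139) but did in a fit of the E. coli libraries alone (adjusted p = 0.0285), as did limma voom (adjusted p = 0.0288). The 3 calls of Cdkn1a named with its responses and their difference held without any one library, with log2 fold changes of 3.11 to 3.57, 1.25 to 1.64 and 1.66 to 2.12. Its difference after PBS had an adjusted p of 0.0557 in a fit of the PBS libraries alone. Of the 14 proliferation genes, 8 were also lower in juvenile than in neonatal PBS libraries, where 2.32% of all tested genes were lower, with sums of 1716 to 3015 CPM in juveniles and 3722 to 4598 CPM in neonates. Stretches of 135 to 165 bases in Cdkn1a transcripts are shared at 95% identity or more with 20 other counted genes, so a part of its reads may be uncertain. An antisense gene, AC167363.2, overlaps 273 bases of its exons and is not a row of the count table.

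**Figure D3:**
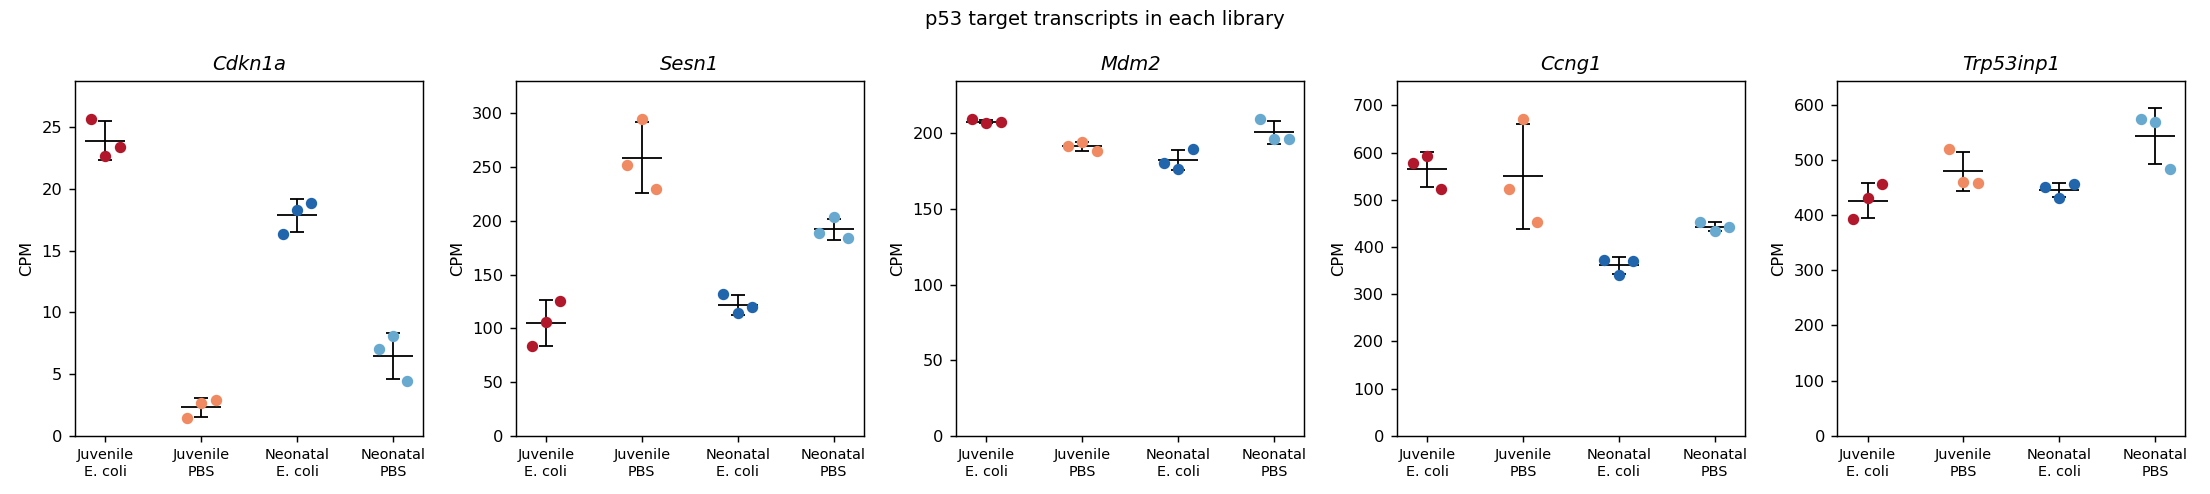
CPM of 5 p53 targets in each library (points), with the mean and SD of each group of 3 (black bars) and a separate scale for each gene. Cdkn1a is higher and Sesn1 lower after E. coli at both ages. In the fit of all libraries, edgeR called neither Mdm2, Ccng1 nor Trp53inp1 at either age.

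Sesn1 (chromosome 10, 41809935 to 41908424, plus strand) encodes sestrin 1, a stress-induced inhibitor of growth signalling through mTORC1. It moved opposite to Cdkn1a, at 83.2, 106 and 126 CPM in juvenile E. coli libraries, against 252, 295 and 229.9 CPM in juvenile PBS libraries. Neonatal E. coli libraries had 132, 114 and 119.6 CPM, against 188, 203 and 184 CPM in neonatal PBS libraries. All 6 E. coli libraries were below all 6 PBS libraries. The log2 fold change was -1.30 ± 0.13 in juveniles (adjusted p = 7.05e-06), rank 92 from the lowest of 11062 genes, and it held without any one library at -1.46 to -1.19.

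In neonates the log2 fold change of Sesn1 was -0.66 ± 0.13 (adjusted p = 0.0186). That call was lost without E. coli library 2 (adjusted p = 0.142) or 3 (adjusted p = 0.0624), and without PBS library 1 (adjusted p = 0.0870), 2 (adjusted p = 0.114) or 3 (adjusted p = 0.0565), while the log2 fold change stayed between -0.72 and -0.60. The decrease was larger in juveniles, by a log2 difference of -0.65 ± 0.18 (adjusted p = 0.0439). This call was lost without any one of 9 libraries, namely juvenile E. coli 1 and 2, juvenile PBS 1, and all 6 neonatal libraries, with adjusted p-values of 0.0547 to 0.113 and differences of -0.73 to -0.54, which leaves 1 of the 9 genes called in that test. Between the PBS groups, juvenile libraries were above neonatal libraries by 0.43 ± 0.13 (adjusted p = 0.0730), which passed without juvenile E. coli library 1 (adjusted p = 0.0269) or 3 (adjusted p = 0.0353), with no filter (adjusted p = 0.0337), with DESeq2 (adjusted p = 0.0304) and with limma voom (adjusted p = 0.0194).

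Mdm2 (chromosome 10, 117688875 to 117710758, minus strand), the p53 ubiquitin ligase, was not called by edgeR in any of the 5 comparisons. It stood at 209, 207 and 207 CPM in juvenile E. coli libraries, against 192, 194 and 189 CPM in juvenile PBS libraries, and the groups did not overlap. Neonatal E. coli libraries had 181, 177 and 189.6 CPM, against 209.5, 196 and 196 CPM in neonatal PBS libraries, again with no overlap but in the opposite direction. The log2 fold changes were 0.12 ± 0.070 in juveniles (adjusted p = 0.239) and -0.14 ± 0.070 in neonates (adjusted p = 0.470), and neither was called. Their difference, 0.26 ± 0.099, was not called either (adjusted p = 0.135). Juvenile E. coli libraries were above neonatal E. coli libraries by 0.19 ± 0.070 (adjusted p = 0.0749), which passed without juvenile PBS library 2 (adjusted p = 0.0386), with DESeq2 (adjusted p = 0.0262) and with limma voom (adjusted p = 0.0153). Limma voom also called the difference of the responses of Mdm2 (0.26, adjusted p = 0.0402). Stretches of 122 to 143 bases of Mdm2 transcripts are shared with 10 other counted genes.

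Ccng1 (chromosome 11, 40748552 to 40755311, minus strand) encodes cyclin G1, which brings the phosphatase PP2A to Mdm2. It was the most abundant of the 9 per kb, at 161 ± 10.6, 156 ± 31.6, 103 ± 5.16 and 126 ± 2.67 CPM per kb in juvenile E. coli, juvenile PBS, neonatal E. coli and neonatal PBS libraries. By library it stood at 578, 593 and 522 CPM in juvenile E. coli, against 524, 671 and 453 CPM in juvenile PBS. In neonatal E. coli it stood at 372, 339.8 and 370.3 CPM, against 452, 433 and 443 CPM in neonatal PBS. The juvenile groups overlapped, and the neonatal E. coli libraries all lay below the neonatal PBS libraries. The log2 fold change was 0.04 ± 0.11 in juveniles (adjusted p = 0.840), with the opposite sign under upper-quartile scaling (-0.02), and -0.30 ± 0.11 in neonates (adjusted p = 0.283). The neonatal change was called by limma voom (adjusted p = 0.0433) and by edgeR when only the neonatal groups were fitted (adjusted p = 0.0167).

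For Ccng1, juvenile E. coli libraries were above neonatal E. coli libraries by 0.64 ± 0.11 on the log2 scale (adjusted p = 0.000804), the only one of the 9 genes called in that comparison, where 17.8% of all tested genes were called, 11.3% higher and 6.42% lower. Juvenile PBS libraries were above neonatal PBS libraries by 0.31 ± 0.11, which was not called (adjusted p = 0.140) but passed without juvenile PBS library 3 (0.43, adjusted p = 0.0306). In that comparison after PBS, Cdkn1a was the only one of the 9 called, where 4.08% of all tested genes were called, 1.75% higher and 2.32% lower. Without juvenile PBS library 2, the highest for Ccng1, the difference of its responses was 0.50 with an adjusted p of 0.00700, against 0.33 ± 0.16 and 0.225 with it, and its neonatal change had an adjusted p of 0.0465. Limma voom called the difference of its responses with all libraries (0.47, adjusted p = 0.00525).

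Trp53inp1 (chromosome 4, 11156431 to 11174379, plus strand) encodes a nuclear protein that takes part in p53 activity and in autophagy. It stood at 393, 431 and 456 CPM in juvenile E. coli libraries, against 520.2, 459 and 458 CPM in juvenile PBS libraries. Neonatal E. coli libraries had 450.3, 432 and 456 CPM, against 574, 569.6 and 484 CPM in neonatal PBS libraries. E. coli libraries lay below PBS libraries at each age without overlap, with 456 CPM in the highest juvenile E. coli library and 458 CPM in the lowest juvenile PBS library. The log2 fold changes of -0.17 ± 0.086 in juveniles (adjusted p = 0.170) and -0.28 ± 0.086 in neonates (adjusted p = 0.164) were not called by edgeR in the fit of all groups. Limma voom called the juvenile change (-0.23, adjusted p = 0.0181), and edgeR called the neonatal change when only the neonatal groups were fitted (-0.28, adjusted p = 0.0491). Phlda3 (chromosome 1, 135766119 to 135769136, plus strand), an inhibitor of the kinase Akt, had 0 counts in all 6 juvenile libraries. It had 0, 1 and 0 counts in neonatal E. coli and 0, 2 and 1 counts in neonatal PBS libraries, all at or under the floor of 3 counts.

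**Figure D4:**
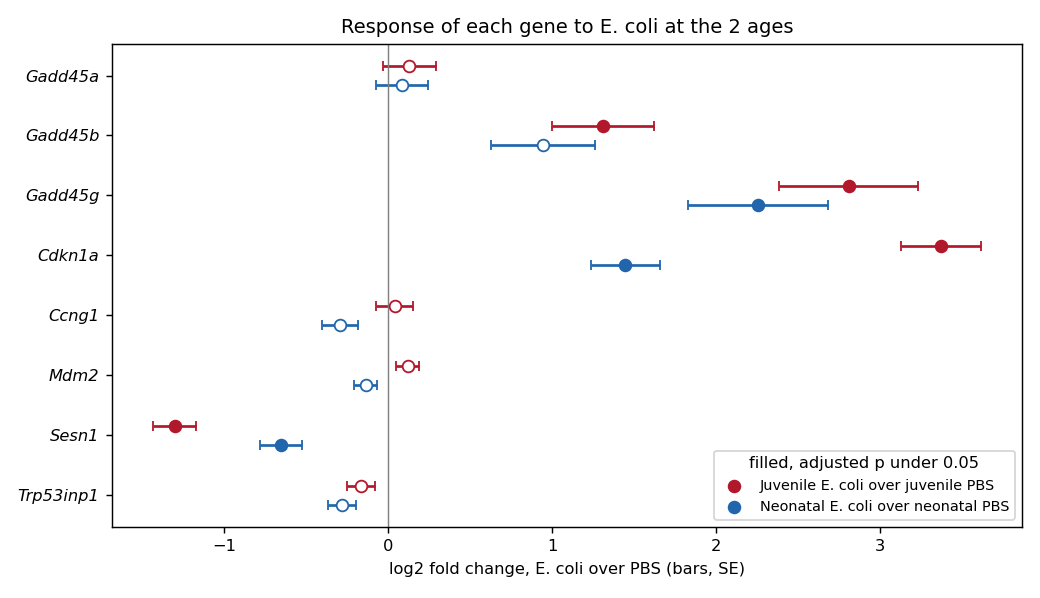
Log2 fold change of E. coli over PBS for the 8 tested genes in juveniles (red) and neonates (blue), with SE bars and filled points for an adjusted p under 0.05. Cdkn1a, at 3.37 and 1.45, and Sesn1, at -1.30 and -0.66, lie on opposite sides of 0 at both ages.

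The Cdkn1a and Ccng1 promoters are shown because both hold matches to the p53 half-site consensus, in capitals. In the edgeR fit of all libraries, Cdkn1a was called after E. coli at both ages and Ccng1 at neither. Of the 2 RefSeq start windows of Cdkn1a, the one shown is the upstream one. Cdkn1a is chr17:29090729-29091028, plus strand, and Ccng1 is chr11:40755237-40755536, minus strand, both GRCm38.p6.
Cdkn1a: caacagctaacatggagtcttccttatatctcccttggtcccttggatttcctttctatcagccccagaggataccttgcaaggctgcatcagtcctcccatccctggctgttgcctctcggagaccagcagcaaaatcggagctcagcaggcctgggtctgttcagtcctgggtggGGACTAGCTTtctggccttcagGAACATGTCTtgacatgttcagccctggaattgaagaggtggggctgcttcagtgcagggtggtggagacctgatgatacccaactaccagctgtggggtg
Ccng1: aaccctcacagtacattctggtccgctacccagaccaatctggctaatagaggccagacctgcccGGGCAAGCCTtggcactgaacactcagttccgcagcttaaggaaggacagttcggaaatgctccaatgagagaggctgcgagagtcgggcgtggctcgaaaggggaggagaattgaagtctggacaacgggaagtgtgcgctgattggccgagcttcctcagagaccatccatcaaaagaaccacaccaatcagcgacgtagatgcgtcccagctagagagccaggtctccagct
The half-site consensus, searched on both strands, was in 5 of the 10 windows of the 8 genes matched (1 each of Gadd45a, Cdkn1a, Ccng1, Mdm2 and Sesn1). It was in 8.36% of all 32851 windows. Most of the genes matched were listed as known p53 targets, so nothing is read from the contrast of these shares. A match is a description of letters. TGTTTAC, a FOXO motif, was in the upstream window of Sesn1 and in that of Mdm2, and in 3.65% of all windows. These windows are short, and a motif outside them was not searched for.

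Across the 12 libraries, the genes whose log2 CPM followed each gene most closely (Pearson's r, out of 8030 genes, as a description over libraries that share groups) differed from gene to gene. For Cdkn1a they were Gem (0.977), Snx18 (0.966) and Rasgef1b (0.963), and for Gadd45b they were Furin (0.956), Slc23a2 (0.943) and Arhgef10 (0.935). For Gadd45g they were Sdc4 (0.932), Plcg2 (0.930) and Chst11 (0.929), and for Gadd45a Atp8a1 (0.836), Bend3 (0.827) and Atxn1l (0.812). Sesn1 was followed by Pdcd4 (0.984), Tagap (0.974) and Paqr7 (0.972), and Ccng1 by Aktip (0.987), Smpdl3a (0.973) and Psme2b-ps (0.970). Mdm2 was followed by Itgb1 (0.906), Keap1 (0.896) and Akap12 (0.891), and Trp53inp1 by Cerkl (0.917), Cdk19 (0.901) and Itga4 (0.892).

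The transcript of p53 itself was abundant and was not called by edgeR in any of the 5 comparisons. Trp53 stood at 227 ± 16.1 CPM in juvenile E. coli and 276 ± 41.9 CPM in juvenile PBS libraries (log2 -0.28 ± 0.11, adjusted p = 0.0827), and at 269.9 ± 26.4 CPM in neonatal E. coli and 278 ± 25.9 CPM in neonatal PBS libraries (log2 -0.04 ± 0.11, adjusted p = 0.937). Of 21 genes written for p53 and its regulators, 17 were tested. In juveniles 3 were higher and 3 were lower after E. coli, or 35.3% against 24.8% of all genes, with a median log2 fold change of -0.01 against -0.01 over all genes. The 4 of smallest p were Ppp1r13b, an ASPP family p53 cofactor (-0.51 ± 0.11, adjusted p = 0.00312), the deubiquitinase Usp28 (-0.59 ± 0.13, adjusted p = 0.00384), the checkpoint kinase Chek1 (0.91 ± 0.22, adjusted p = 0.00758) and the ubiquitin ligase Rchy1 (-0.34 ± 0.098, adjusted p = 0.0191). In neonates only Usp28 was called (-0.59 ± 0.13, adjusted p = 0.0327), or 5.88% against 1.19% of all genes. The difference of responses was called for the chaperone Daxx alone (0.83 ± 0.22, adjusted p = 0.0324), or 5.88% against 7.00% of all genes. Between ages, the kinase Hipk2, which phosphorylates p53, was lower in juveniles after E. coli (-0.41 ± 0.085, adjusted p = 0.00333) and after PBS (-0.50 ± 0.085, adjusted p = 0.00457), and Daxx was higher in juveniles after E. coli (0.63 ± 0.15, adjusted p = 0.0108). No other gene of the list was called between ages, which left 11.8% against 17.8% of all genes after E. coli. After PBS it was 5.88% against 4.08% of all genes.

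Further textbook p53 targets were described as a list of 32 genes, written with earlier results of these data known, of which 26 were tested. After E. coli in juveniles 6 were higher and 2 lower, or 30.8% against 24.8% of all genes, and the median log2 fold change was 0.16 against -0.01 over all genes. Apaf1, the scaffold of the apoptosome, stood at 136 ± 13.4 CPM in juvenile E. coli and 73.2 ± 1.64 CPM in juvenile PBS libraries (log2 0.89 ± 0.096, adjusted p = 1.34e-05). Pmaip1, which encodes the death inducer Noxa, stood at 29.6 ± 2.77 and 10.1 ± 1.47 CPM in juvenile E. coli and juvenile PBS libraries (1.55 ± 0.20, adjusted p = 4.88e-05). The kinase gene Plk3 stood at 19.2 ± 2.49 and 5.59 ± 2.62 CPM in the same groups (1.78 ± 0.25, adjusted p = 0.000124). The detoxifying enzyme gene Ephx1 was lower, at 32.2 ± 6.70 and 51.9 ± 3.00 CPM (-0.69 ± 0.14, adjusted p = 0.00183). The others called higher were Ddit4 (1.03), Polk (0.52) and the death receptor gene Tnfrsf10b (0.64). Bbc3, which encodes the death inducer Puma, was called lower (-1.37). It had few counts, 7 to 19 in each juvenile E. coli and 17 to 40 in each juvenile PBS library (1.59 ± 0.745 and 4.16 ± 1.93 CPM).

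In neonates edgeR called 0 of these 26 genes, against 1.19% of all 11062 tested genes. With so low a share over all genes, nothing is read from the count of 0. At an unadjusted p under 0.05 there were 5, against 1327 of all tested genes. DESeq2 called 1 of the 26 and limma voom 2. The 2 of smallest p were the antiproliferative Btg2 (0.55 ± 0.15, adjusted p = 0.102) and Plk3 (0.92 ± 0.26, adjusted p = 0.124), and the median was 0.02 against 0.00 over all genes. The difference of responses was called for 4, or 15.4% against 7.00% of all genes. These were Apaf1 (0.86 ± 0.14, adjusted p = 0.00221), the DNA polymerase Polk (0.62 ± 0.16, adjusted p = 0.0308), Btg2 (-0.79 ± 0.21, adjusted p = 0.0328) and Pmaip1 (1.04 ± 0.28, adjusted p = 0.0340). That count was 1 without juvenile E. coli library 1 or 2, neonatal E. coli library 1 or neonatal PBS library 1, and 2 without juvenile PBS library 1 or 3, neonatal E. coli library 2 or neonatal PBS library 2 or 3. The count of 0 in neonates was 1 without juvenile E. coli library 3 or juvenile PBS library 2 or 3.

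After E. coli, 10 of the 26 were higher in juveniles than in neonates and 0 were lower, or 38.5% against 17.8% of all genes, led by Apaf1 (0.71 ± 0.095), Polk (0.65 ± 0.11), Zfp365 (0.87 ± 0.16) and the mTORC1 inhibitor Ddit4 (1.08 ± 0.21). After PBS edgeR called 0 of the 26 between the ages, against 4.08% of all 11062 tested genes. At an unadjusted p under 0.05 there were 7, against 1973 of all tested genes, and DESeq2 and limma voom called 4 each. The smallest p-values were those of Plk2 (0.50 ± 0.15, adjusted p = 0.0790) and Btg2 (0.49 ± 0.15, adjusted p = 0.0797). Bax, the pore-forming death effector, stood at 5.32 ± 1.25 and 6.61 ± 1.59 CPM in juvenile E. coli and juvenile PBS libraries and was not called (adjusted p = 0.374). It was chosen after its values were seen, as a textbook p53 target.

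**Figure D5:**
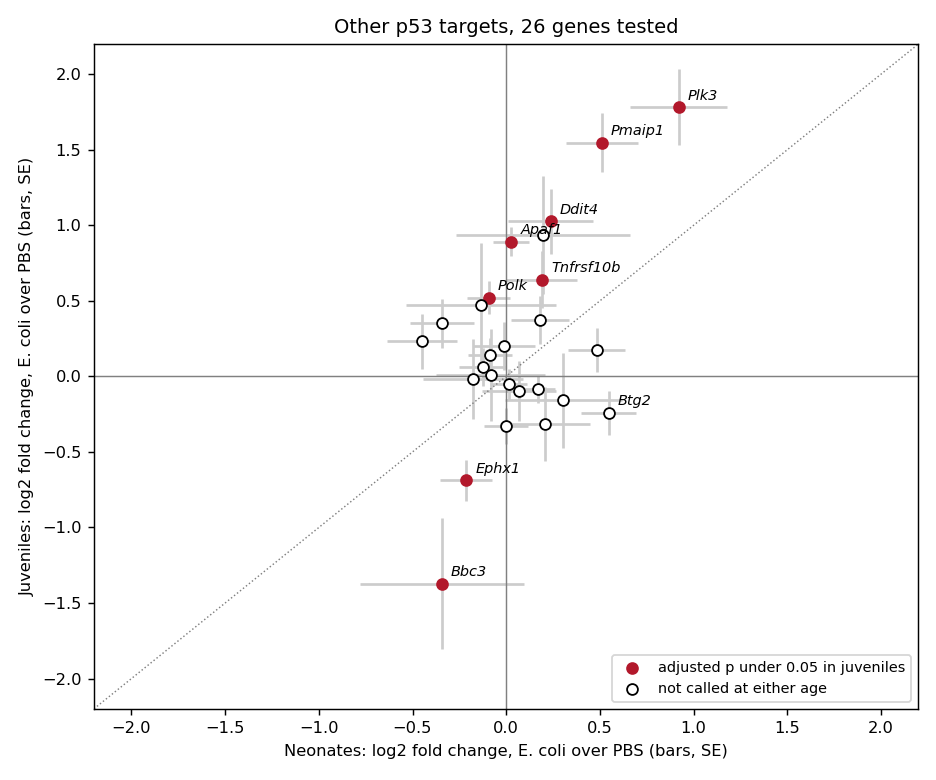
Log2 fold change of E. coli over PBS in juveniles (vertical axis) and neonates (horizontal axis) for the 26 tested p53 targets outside the named 9, with SE bars and a dotted line of equal change. The 8 red points were called in juveniles, 6 above 0 and 2 below, where 24.8% of all tested genes were called. No point was called in neonates, where 1.19% of all tested genes were called.

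Among 14 genes for partners of GADD45 proteins, 3 were higher and 2 lower after E. coli in juveniles, or 35.7% against 24.8% of all genes. The kinase Map2k3, which activates p38, was higher (0.68 ± 0.12, adjusted p = 0.000788), as were Cdk1 (1.17 ± 0.21, adjusted p = 0.000802) and its cyclin Ccnb1 (1.10 ± 0.23, adjusted p = 0.00279), while the p38 gene Mapk14 was lower (-0.40 ± 0.089, adjusted p = 0.00415). Map3k4, the kinase that GADD45 proteins bind, was not called at either age (0.01 ± 0.11 in juveniles and -0.15 ± 0.11 in neonates). In neonates edgeR called 0 of the 14, against 1.19% of all 11062 tested genes, and DESeq2 and limma voom called 0. At an unadjusted p under 0.05 there were 0, against 1327 of all tested genes. The difference of responses was called for 2, or 14.3% against 7.00% of all genes, namely Ccnb1 (1.30 ± 0.32, adjusted p = 0.0233) and Cdk1 (1.14 ± 0.28, adjusted p = 0.0253), both of which were lower in juvenile than in neonatal PBS libraries (-1.04 ± 0.23 and -0.92 ± 0.21). Between the E. coli groups 3 of the 14 were called, or 21.4% against 17.8% of all genes. Juvenile E. coli libraries were above neonatal E. coli libraries for Map2k3 (0.71 ± 0.12) and Mapk9 (0.39 ± 0.12) and below them for Map2k7 (-0.52 ± 0.17).

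Of 15 relatives of these families and other cell cycle inhibitors, 11 were tested. In juveniles 2 were higher and 1 lower after E. coli, or 27.3% against 24.8% of all genes. Phlda1 (1.37 ± 0.19, adjusted p = 9.47e-05) and the CDK4 and CDK6 inhibitor Cdkn2c (0.79 ± 0.18, adjusted p = 0.00448) were higher, and Cdkn1b, which encodes p27, was lower (-0.35 ± 0.10, adjusted p = 0.0217). In neonates edgeR called 0 of the 11, against 1.19% of all 11062 tested genes, while DESeq2 called 2 and limma voom 3. At an unadjusted p under 0.05 there were 4, against 1327 of all tested genes. The smallest p-values were those of Trp53inp2 (0.71 ± 0.18, adjusted p = 0.0734) and Btg1 (0.43 ± 0.11, adjusted p = 0.0757). The difference of responses was called for 3, or 27.3% against 7.00% of all genes, namely Phlda1 (1.23 ± 0.26), Cdkn2c (1.10 ± 0.25) and the antiproliferative Btg1 (-0.54 ± 0.15). Between the E. coli groups 5 of the 11 were called, 2 higher and 3 lower in juveniles, or 45.5% against 17.8% of all genes. Cdkn2c (0.88 ± 0.17) and Phlda1 (0.67 ± 0.18) were higher, and Tob1 (-0.85 ± 0.20), Ccng2 (-0.33 ± 0.099) and the CDK inhibitor Cdkn2d (-0.59 ± 0.19) were lower. After PBS, Btg1 alone was called between the ages, higher in juveniles (0.41 ± 0.11, adjusted p = 0.0433), or 9.09% against 4.08% of all genes.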

How the data were processed

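RNA of lung CD4+ T cells was amplified with a kit that does not mark strand and sequenced as paired ends of 100 bases, per the labels' protocols. CASAVA 1.8.4, STAR and GRCm38 are named in the submitters' processing notes. The deposited table holds raw counts per gene, whole numbers with no normalization by the authors, and the labels do not state how reads were assigned to genes. Groups were taken from the labels. Genes were kept by edgeR's filterByExpr (minimum count 10, minimum total 15), which left 11062 genes with 99.92% of the counts. Means of the 4 groups were fitted over all 12 libraries with edgeR 4.0.16 (TMM scaling, quasi-likelihood test, Benjamini-Hochberg adjustment over all tested genes, calls at an adjusted p under 0.05), checked on simulated data. Fold changes are edgeR's log2 values with SE. The alternatives were other scalings, DESeq2 1.42.0, limma 3.58.1 with voom, other filters, a replicate block, fits of the compared groups alone and leaving out each library. Every limma voom fit gave each library a quality weight, so libraries did not count equally in it. Gene spans are from GENCODE M21, and blastn 2.17.0 found shared stretches. The members and gene lists were chosen with earlier results of these data known. Of each list, up to 4 called genes of smallest p were named, or 2 where none was called, and 3 like genes for each member. No pair of libraries agreed within sampling noise (chi-square per degree of freedom of 3.88 to 19.6). Protein sequences were not used here.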

Additional observations from a re-analysis of the deposited data

Results flagged for a closer look

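In the test of the difference of responses between the ages, 2 of the 8 tested genes were called, where 7.00% of all tested genes were called. The genes were chosen with such contrasts known, so nothing is read from this count. For Cdkn1a the juvenile response exceeded the neonatal response by 1.93 ± 0.33 on the log2 scale (adjusted p = 0.00324). For Sesn1 the difference was -0.65 ± 0.18 (adjusted p = 0.0439), a larger decrease in juveniles, and that call was lost without any one of 9 libraries.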

How the results depend on the processing

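Of 40 gene and comparison pairs, 11 were called. Of these calls, 7 held in every fit that tested them, among 12 fits without a library and 8 other settings. Fits of the compared groups alone did not test the difference of responses. Where a count moved, the cause was not tested. The share of all genes called is not given for every setting. Nothing is read from the counts of members or other p53 targets, which were chosen with earlier results known. DESeq2 called 238 genes in neonates (E. coli against PBS) and 729 between the PBS groups, 2 members between the E. coli groups, 2 between the PBS groups, and 1 other p53 target in neonates. Limma voom called 4480 genes in juveniles, 312 in neonates, 2300 for the difference of responses, 3810 between the E. coli groups and 927 between the PBS groups. It called 5, 5, 4, 3 and 2 members in these 5 comparisons, and 2 and 8 other p53 targets in neonates and for the difference. With no filter 2 members were called between the PBS groups and 1 other p53 target in neonates. In fits of the compared groups alone, 320 genes, 5 members and 2 other p53 targets were called in neonates, 2 members between the E. coli groups, and 280 genes and 0 members between the PBS groups. Libraries of the same number did not deviate together (correlations of -0.169 to 0.223, 5 of 12 best with their own number), and with a replicate block 1 member was called for the difference, where Sesn1 had -0.65 (adjusted p = 0.0616).

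Without 1 library each, genes called ranged from 1656 to 3204 in juveniles, 55 to 238 in neonates, 368 to 1553 for the difference, 1108 to 2637 between the E. coli groups and 177 to 671 between the PBS groups. Members called ranged from 4 to 4, 1 to 5, 1 to 3, 1 to 2 and 1 to 2 in the same order, and other p53 targets from 6 to 10, 0 to 1 and 1 to 5 in the first 3. Changes of sign were all in values that were not called. With upper-quartile scaling Ccng1 in juveniles was -0.018 and the Gadd45a difference -0.017, and with limma voom Gadd45g between the PBS groups was 0.17. Without 1 library, log2 values ranged from -0.073 to 0.21 for Ccng1 in juveniles, -0.10 to 0.21 for the Gadd45a difference, -0.085 to 0.20 for Gadd45a in neonates, -0.27 to 0.41 for Gadd45b and -0.50 to 0.36 for Gadd45g between the PBS groups. Depth limits Gadd45g, with 3 to 14 counts in each PBS library, and Phlda3, which was at or under 3 counts in every library. Counts of Cdkn1a were also low in juvenile PBS libraries, at 10 to 18 in each.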
